A study of Mus musculus with 12 samples.

Results

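The 9 genes described here encode receptors for chemokines and for formyl peptides, the cues by which microglia and other myeloid cells are attracted and positioned. They were chosen by gene symbol (Cxcr4, Cx3cr1, Ccr1, Ccr2, Ccr7, Ccrl2, Ackr3, Fpr1 and Fpr2), without a threshold on any measured value, and are 9 of the 41325 genes in the deposited tables. RNA sequencing was done in IMG cells, an immortalised mouse microglial line of the C57Bl6/J strain and wild-type genotype, all at the same passage. There were 4 libraries of cells treated for 8 h with oAb, 4 with fAb and 4 with scramble, the control. Both oAb and fAb are forms of amyloid beta, a peptide deposited in the brain in Alzheimer's disease. Which of them was fibrillar and which oligomeric is not settled here, because the study's wording and its abbreviations point in opposite directions, so both keep their labels. Nothing says that the 4 libraries of a group stem from separate cultures, and the p-values then reflect only the spread among libraries, which may be technical.

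Most chemokine receptors are membrane proteins that couple to inhibitory G proteins, and the binding of a chemokine sets off calcium release, changes in actin and directed movement. Atypical receptors such as Ackr3 and Ccrl2 bind ligands without this coupling and instead remove or present them. Formyl peptide receptors sense peptides that start with formyl-methionine, as those of bacteria and mitochondria do, and human FPR2 also binds serum amyloid A and amyloid beta. In the brain, Cx3cr1 is a defining receptor of microglia, whereas Ccr2 is known from blood monocytes.

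After amyloid treatment the receptor set was reordered. Cxcr4 and Ccr2 transcripts fell, Ccrl2, Fpr1 and Fpr2 transcripts rose by large factors, Cx3cr1 and Ccr1 rose by less than 1 log2 unit, and Ccr7 and Ackr3 stayed at or next to 0 counts. For oAb against scramble 5 of the 9 receptors rose and 2 fell, and the counts were the same for fAb against scramble (edgeR quasi-likelihood test, adjusted p under 0.05). The background to these counts is high, since 52.2% of the 11033 genes tested passed for oAb (25.2% higher, 27.0% lower) and 56.3% of 11074 for fAb (27.6% higher, 28.8% lower). Ccr7 and Ackr3 did not pass the filter on low counts. Cxcr4, Fpr1 and Fpr2 passed it only through the group in which they were high, as did Ccr2 for oAb. Once tested, these could come out only as higher in that group, so the number that passed is not read as support. For fAb, Ccr2 reached the filter's cutoff in 2 fAb libraries, too few to pass without scramble, so that call is not read as support either. In bulk samples, fewer cells that express a gene and less RNA per cell cannot be told apart.

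Sequences are shown for the 4 receptors with the largest changes: the 250 bases before the RefSeq transcription start (GRCm38.p6, which is the mm10 build of the files), written 5′ to 3′ on the strand of the gene, with matches to any of 5 short motifs in capitals. They lie at chr1:128592300-128592549 (Cxcr4, minus strand), chr9:111057519-111057768 (Ccrl2, minus strand), chr17:17883940-17884189 (Fpr1, minus strand) and chr17:17887574-17887823 (Fpr2, plus strand).
Cxcr4: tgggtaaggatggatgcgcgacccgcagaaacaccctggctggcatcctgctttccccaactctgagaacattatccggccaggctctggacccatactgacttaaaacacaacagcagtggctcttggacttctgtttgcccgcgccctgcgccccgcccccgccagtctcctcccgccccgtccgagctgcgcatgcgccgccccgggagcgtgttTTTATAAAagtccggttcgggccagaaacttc
Ccrl2: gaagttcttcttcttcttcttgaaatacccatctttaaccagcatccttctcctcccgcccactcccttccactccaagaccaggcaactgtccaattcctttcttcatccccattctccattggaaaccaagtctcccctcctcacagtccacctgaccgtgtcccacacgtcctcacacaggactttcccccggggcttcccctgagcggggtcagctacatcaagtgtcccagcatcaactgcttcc
Fpr1: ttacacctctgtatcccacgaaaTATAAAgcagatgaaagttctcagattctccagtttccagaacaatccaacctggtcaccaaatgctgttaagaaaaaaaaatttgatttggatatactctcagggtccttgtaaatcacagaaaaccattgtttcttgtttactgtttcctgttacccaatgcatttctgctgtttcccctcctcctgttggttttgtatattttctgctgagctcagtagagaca
Fpr2: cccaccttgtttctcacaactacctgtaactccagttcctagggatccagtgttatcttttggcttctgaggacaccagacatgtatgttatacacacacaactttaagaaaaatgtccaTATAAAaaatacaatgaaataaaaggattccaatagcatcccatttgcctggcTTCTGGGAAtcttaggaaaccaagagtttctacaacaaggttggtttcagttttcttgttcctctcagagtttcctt

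The motifs were searched on both strands in the same 250-base window of 32851 mouse promoters. They were a kappaB-type motif, GGGA and TTCC with 2 bases between them, found in 1.21% of them, an interferon-response motif, GAAA and GAAA with 2 bases between them, found in 2.98%, an AP-1 motif, TGANTCA, found in 6.75%, a STAT motif, TTCNNNGAA, found in 7.02%, and TATAAA, found in 12.4%. TATAAA and the GC content were added after the sequences had been seen. In the Cxcr4 window the capitals mark TATAAA at -30 from the start, which overlaps a match on the other strand at -32. The Fpr2 window holds TTCTGGGAA, a STAT match, at -77 and TATAAA at -130, and the Fpr1 window holds TATAAA at -227. The Ccrl2 window holds none of the 5 motifs as spelled here, and looser spellings were not searched. Ccrl2 has 3 RefSeq start sites, and only the window of the site nearest the annotated start of the gene was searched. The absence of a match therefore does not show that its promoter lacks such sites. The Cxcr4 window is GC-rich (61.2%, the 74.8th percentile of promoters, with 19 CG pairs), and those of Fpr1 (38.4%, with 1 CG pair) and Fpr2 (38.8%, with 0) lie at the 9.05th and 9.70th percentiles, against a median of 52.4% over all promoters. These matches describe letters in a window, not bound sites.

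Cxcr4 (mm10 chromosome 1, 128588199 to 128592293, minus strand, 2 exons) encodes the receptor for Cxcl12 and keeps many leukocytes in place in tissues. Its counts were 5, 7, 8 and 6 in oAb libraries 1 to 4 and 5, 8, 8 and 7 in fAb libraries 1 to 4, against 1098, 886, 683 and 797 in scramble libraries 1 to 4. Every treated library lay far below every scramble library. The authors' length-scaled level was 0.640 ± 0.133 TPM in oAb and 0.656 ± 0.141 TPM in fAb, against 88.5 ± 17.1 TPM in scramble (SD, n = 4 each). The level was 118-fold lower in oAb (log2 fold change -6.89 ± 0.16 SE, edgeR adjusted p = 2.24e-09) and 119.7-fold lower in fAb (log2 fold change -6.90 ± 0.15, edgeR adjusted p = 1.78e-09). Among genes with a count, its mean TPM stood at the 90.1st percentile in scramble, and at the 29.3rd in both oAb and fAb. In scramble Cxcr4 made up 61.9% to 68.5% of the summed TPM of the 9 receptors.

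Ccr2 (chromosome 9, 124101950 to 124113557, plus strand) encodes the receptor for Ccl2, Ccl7 and Ccl12 and guides monocytes out of the bone marrow. It had 5, 5, 6 and 10 counts in the oAb libraries and 12, 17, 8 and 8 in the fAb libraries, against 98, 75, 39 and 63 in the scramble libraries. The groups did not overlap, and scramble library 3 was the lowest of the controls. The mean level was 0.169 ± 0.0527 TPM in oAb and 0.280 ± 0.101 TPM in fAb, against 1.88 ± 0.653 TPM in scramble (SD, n = 4 each). Ccr2 fell by 3.22 ± 0.29 on the log2 scale in oAb (edgeR adjusted p = 1.3e-05) and by 2.57 ± 0.27 in fAb (edgeR adjusted p = 4.59e-05), which is 9.34-fold and 5.92-fold lower. Of its 50-base words, 1.91% also occur in other genes.

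Ccrl2 (chromosome 9, 111054486 to 111057519, minus strand) encodes the atypical receptor that binds chemerin and presents it to neighbouring cells. Its counts were 705, 690, 766 and 888 in the oAb libraries and 717, 739, 739 and 768 in the fAb libraries, against 14, 12, 13 and 10 in the scramble libraries. Every treated library lay far above every scramble library, and the spread within each group was small beside that gap. The mean was 52.0 ± 3.52 TPM in oAb and 48.2 ± 1.95 TPM in fAb, against 0.868 ± 0.0887 TPM in scramble (SD, n = 4 each). The level was 67.3-fold higher in oAb (log2 fold change 6.07 ± 0.15, edgeR adjusted p = 2.73e-09) and 60.4-fold higher in fAb (5.92 ± 0.14, edgeR adjusted p = 2.87e-09). Ccrl2 made up 35.1% to 41.2% of the summed TPM of the 9 receptors in oAb and 34.8% to 37.1% in fAb, against 0.541% to 0.869% in scramble. The ligand list holds chemerin's gene, Rarres2, which was not tested and had 0 mean CPM in oAb and in fAb, against 0.0158 CPM in scramble.

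**Figure D1:**
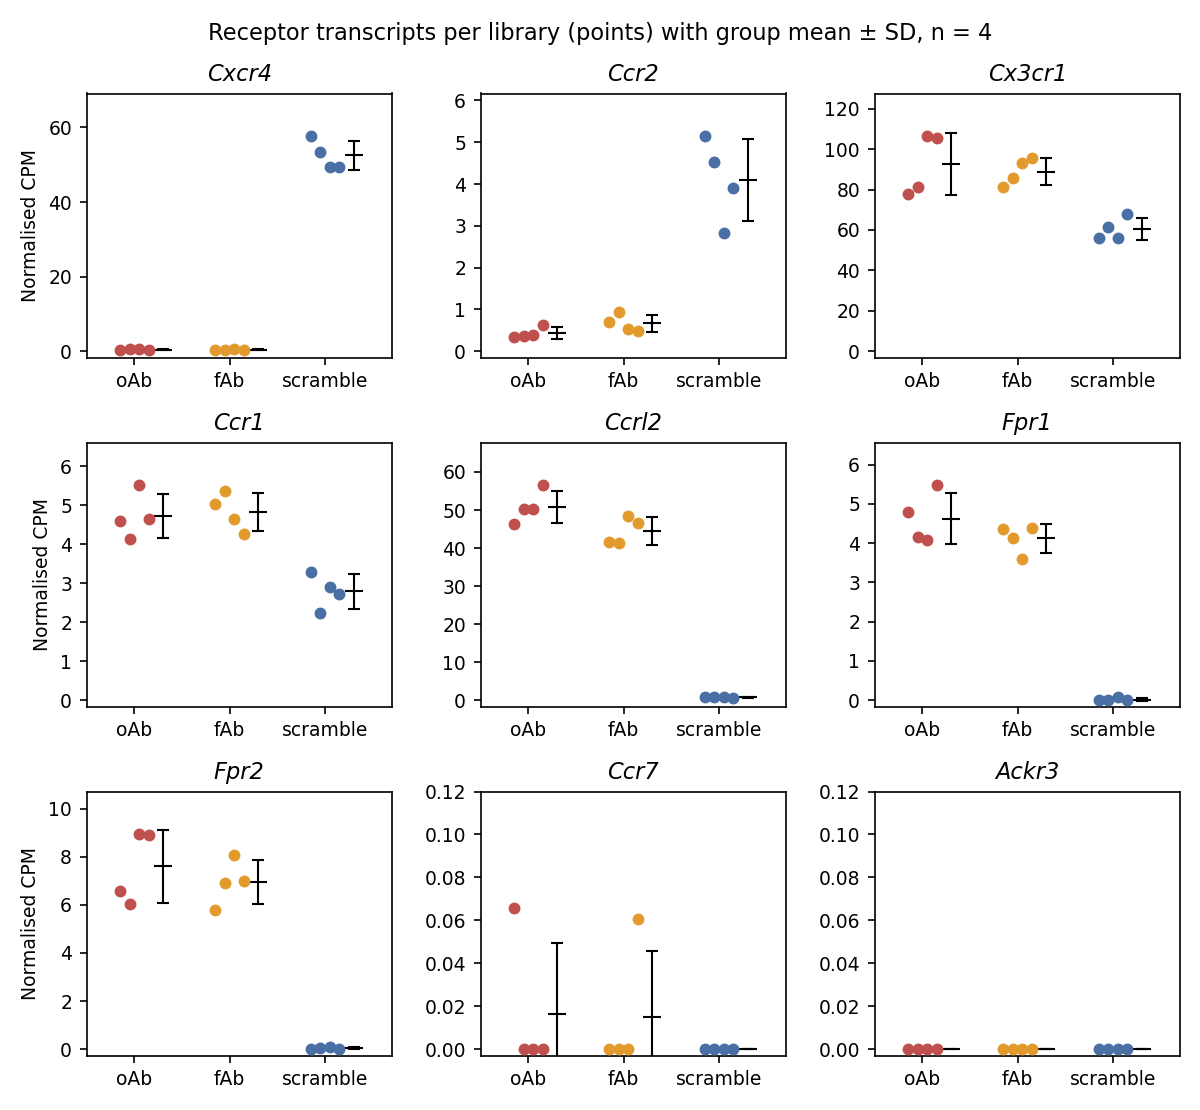
CPM on TMM-normalised library sizes (vertical axes) of the 9 receptors in the 4 oAb, 4 fAb and 4 scramble libraries; points are libraries and bars the group mean ± SD (n = 4). Cxcr4 and Ccr2 sit near the bottom in all 8 treated libraries, Ccrl2, Fpr1 and Fpr2 near the bottom in the 4 scramble libraries, and the Ccr7 points above 0 are 1 count each.

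Fpr1 and Fpr2 are neighbours on chromosome 17, at 17876471 to 17883940 (minus strand) and 17887824 to 17893952 (plus strand), with their starts facing each other across 3883 bases. Fpr1 encodes the high-affinity receptor for bacterial formyl peptides, best known from neutrophils. It had 73, 57, 62 and 86 counts in the oAb libraries and 75, 74, 55 and 72 in the fAb libraries, against 0, 0, 1 and 0 in the scramble libraries. The control signal is thus a single count in scramble library 3, and 3 counts, the limit that a count of 0 allows, correspond to 0.166 to 0.220 CPM per library. Since a fitted fold change would depend on the prior count here, the ratio of counts is given. It was 305 in oAb (95% exact counting interval 54.3 to 12086) and 278 in fAb (49.5 to 11034), and the intervals cover counting error only. Both comparisons passed (edgeR adjusted p = 1e-06 for oAb and 8.96e-07 for fAb).

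Fpr2 encodes the receptor with the widest range of ligands in the family. Its counts were 100, 83, 136 and 140 in the oAb libraries and 100, 124, 123 and 115 in the fAb libraries, against 0, 1, 1 and 0 in the scramble libraries. Again no treated library came near a control, and the control sum was 2 counts. The ratio of counts was 252 in oAb (95% exact counting interval 69.3 to 2085) and 233 in fAb (64.1 to 1929), and both comparisons passed (edgeR adjusted p = 6.4e-07 and 3.89e-07). In TPM, Fpr1 reached 9.29 ± 1.34 in oAb and 8.78 ± 0.943 in fAb, and Fpr2 15.6 ± 2.89 in oAb and 15.1 ± 1.68 in fAb (SD, n = 4 each). Fpr2 exceeded Fpr1 in all 8 treated libraries, with a ratio of TPM between 1.36 and 2.28. The Fpr2 value is uncertain in 1 respect: 31.5% of its 50-base words also occur in other genes, 28.4% in the pseudogene Gm5966. No gene of that name is among those counted. On the same strand, 3.70% of the exon bases of Fpr2 overlap Fpr3. Fpr3, Fpr-rs3 and Fpr-rs4 had 0 counts in all 12 libraries. Of the words of Fpr1, 0.0784% are shared.

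The defining neutrophil genes Ly6g, Ngp and S100a9 were at 0 in all libraries. The summed level of the 5 neutrophil markers, of which 2 had a count, was 0.0629 to 0.240 CPM in oAb and 0.170 to 0.441 CPM in fAb, against 0.147 to 0.368 CPM in scramble.

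Cx3cr1 (chromosome 9, 119901616 to 120069879, minus strand) encodes the receptor for fractalkine, through which neurons and microglia communicate. Its counts were 1182, 1115, 1620 and 1663 in the oAb libraries and 1403, 1533, 1418 and 1573 in the fAb libraries, against 1070, 1023, 774 and 1093 in the scramble libraries. After scaling, oAb libraries 1 and 2, at 77.7 and 81.2 CPM, were below oAb libraries 3 and 4, at 106 CPM each, and all lay above the highest scramble library, at 67.8 CPM. The mean was 54.6 ± 8.17 TPM in oAb and 55.6 ± 2.19 TPM in fAb, against 40.8 ± 7.28 TPM in scramble (SD, n = 4 each). Cx3cr1 rose 1.54-fold in oAb (log2 fold change 0.62 ± 0.13, edgeR adjusted p = 0.00344) and 1.51-fold in fAb (0.59 ± 0.10, edgeR adjusted p = 0.000657). Its exons overlap those of the antisense gene Gm33858 over 1.73% of their bases.

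The oAb libraries that differ at Cx3cr1 also differ in a feature of the libraries. Scramble 2, 3 and 4 and oAb 1 and 2 assigned 94.6% to 98.3% of the counts of Timm23 and its near-identical copy Gm10273 to Timm23, whereas scramble 1, oAb 3 and 4 and all fAb libraries assigned 17.5% to 38.5%. These are called the Timm23 set and the Gm10273 set; they were found from the data, and no label gives a batch. Within the Timm23 set (2 oAb against 3 scramble libraries) the Cx3cr1 log2 fold change was 0.37 and lost its call (edgeR adjusted p = 0.0927). Within the Gm10273 set (2 oAb libraries against 1 scramble library) it was 0.96, a value with no spread among controls behind it, and with the set as a term it was 0.56 (edgeR adjusted p = 0.00759). For fAb against scramble it was 0.72 with the set as a term (edgeR adjusted p = 0.00773). That value rests on scramble library 1, the only control in the set that holds all fAb libraries. What the sets stand for was not tested.

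Ccr1 (chromosome 9, 123962124 to 123968692, minus strand) encodes a receptor for Ccl3 and Ccl5 and, in the mouse, Ccl6 and Ccl9. It had 70, 57, 84 and 73 counts in the oAb libraries and 87, 96, 71 and 70 in the fAb libraries, against 63, 37, 40 and 44 in the scramble libraries. The raw counts of oAb library 2 fell below those of scramble library 1, but after scaling for library size the groups did not overlap. The mean was 4.44 ± 0.502 TPM in oAb and 4.82 ± 0.681 TPM in fAb, against 2.98 ± 0.655 TPM in scramble (SD, n = 4 each). Ccr1 rose 1.69-fold in oAb (log2 fold change 0.76 ± 0.17, edgeR adjusted p = 0.00446) and 1.78-fold in fAb (0.83 ± 0.16, edgeR adjusted p = 0.00193). With the library set as a term the oAb value was 0.70 (edgeR adjusted p = 0.00542) and the fAb value 0.60, which lost its call (edgeR adjusted p = 0.0923). Within the Gm10273 set the fAb value was 0.61. Both of these fAb values rest on scramble library 1 as the only control, so they are not separate checks.

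Ccr7, the receptor for Ccl19 and Ccl21 that takes dendritic cells to lymph nodes, had 1 count in oAb library 1 and 1 in fAb library 4, and 0 in the other 10 libraries. Ackr3, the scavenger receptor for Cxcl12 and Cxcl11, had 0 counts in all 12 libraries. Both were at or under the limit of 3 counts, so no fold is given.

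**Figure D2:**
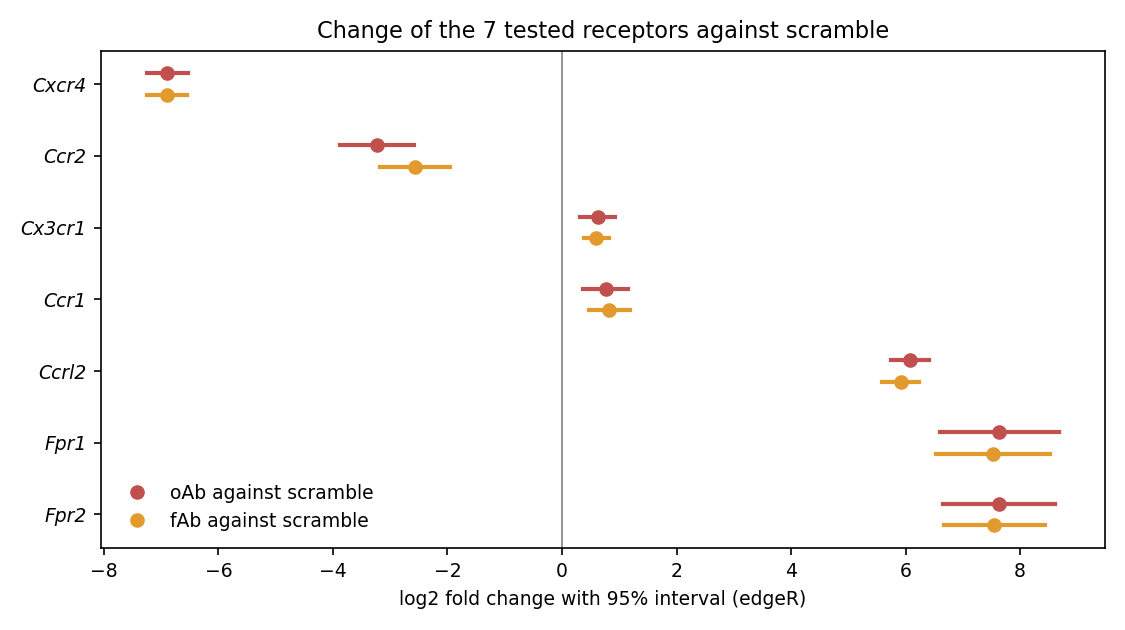
Log2 fold change (horizontal axis) with its 95% interval for the 7 tested receptors, from edgeR, for oAb against scramble (upper point of each pair) and fAb against scramble (lower point). Cxcr4 (-6.89 and -6.90) and Ccr2 lie left of 0 and the other 5 right of it; the points of Fpr1 and Fpr2 depend on the prior count, since scramble had 1 and 2 counts.

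The oAb and fAb comparisons share their 4 scramble libraries, so their likeness is not independent support, and oAb and fAb were also compared directly. Of the 9 receptors 5 were tested for fAb against oAb and none passed, where 0% of 10878 genes passed in edgeR (1391 genes had an unadjusted p under 0.05), limma voom called 0 and DESeq2 called 16. The log2 fold change of fAb over oAb was -0.06 for Cx3cr1 (95% interval -0.30 to 0.18, edgeR adjusted p = 0.822) and 0.03 for Ccr1 (-0.26 to 0.32, edgeR adjusted p = 0.927). For Fpr1 it was -0.17 (-0.47 to 0.14, edgeR adjusted p = 0.592) and for Fpr2 -0.14 (-0.47 to 0.20, edgeR adjusted p = 0.695). Of the 5, only Ccrl2 had an interval wholly below 0 (-0.19, -0.35 to -0.03), with an edgeR adjusted p of 0.375. These intervals bound the difference and do not show that the preparations act alike. Cxcr4 and Ccr2 did not pass the filter between the treated groups. Ccr2 averaged 0.664 ± 0.211 CPM in fAb and 0.431 ± 0.139 CPM in oAb (SD, n = 4 each; exact permutation test, two-sided p = 0.114), and Cxcr4 0.422 ± 0.0977 CPM in fAb and 0.436 ± 0.0963 CPM in oAb (exact permutation p = 0.886). The ratio of Fpr2 to Fpr1 TPM was 1.75 ± 0.388 in fAb and 1.70 ± 0.378 in oAb (exact permutation p = 0.8). The smallest p this design allows is 0.0286.

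By level per length, Cxcr4 led in scramble, followed by Cx3cr1, then Ccr1 and Ccr2, whose libraries overlapped, then Ccrl2, then Fpr2 and Fpr1, which overlapped next to 0. In oAb the order was Cx3cr1 and Ccrl2, whose libraries overlapped, then Fpr2, Fpr1, Ccr1, Cxcr4 and Ccr2, each without overlap with the next. In fAb the order was the same, and the lowest Cx3cr1 library (52.4 TPM) was above the highest Ccrl2 library (50.7 TPM). The sum over the 9 receptors was close in the 3 groups, at 137 ± 14.1 TPM in oAb and 133 ± 4.14 TPM in fAb, against 135 ± 23.6 TPM in scramble (SD, n = 4 each). With 28 other chemoattractant receptors added, the sum was 564 ± 35.4 TPM in oAb and 591 ± 17.7 TPM in fAb, against 391 ± 64.9 TPM in scramble, and the 9 receptors made up 24.2 ± 1.02% in oAb and 22.6 ± 0.431% in fAb, against 34.5 ± 1.63% in scramble.

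**Figure D3:**
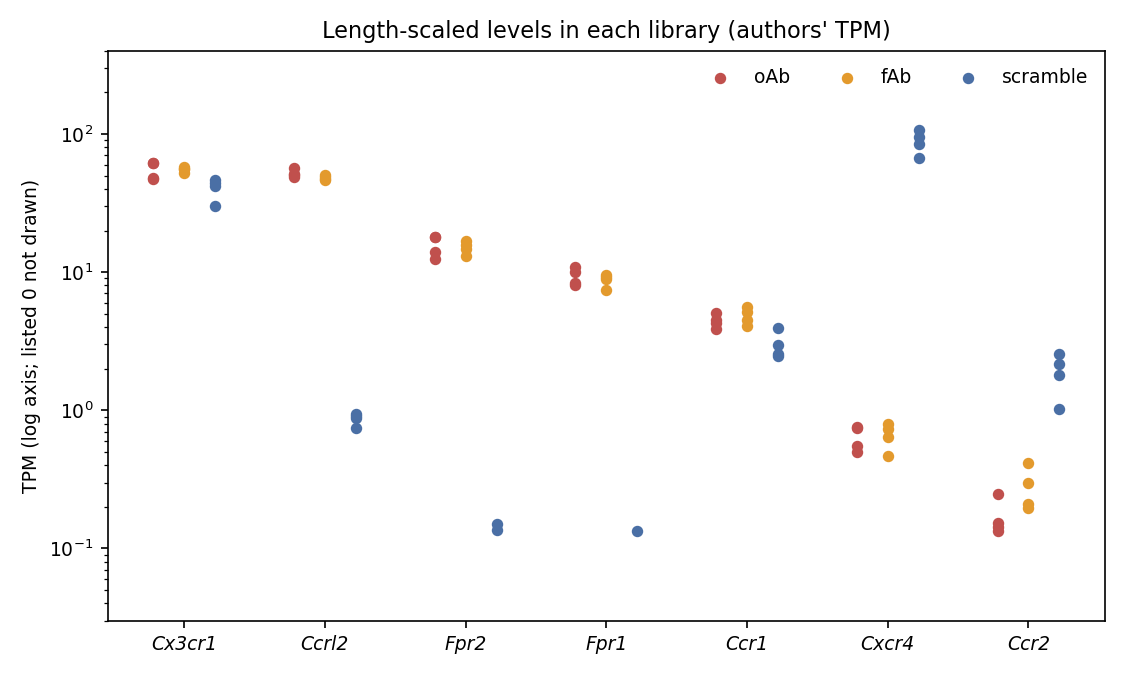
TPM as given by the authors (vertical log axis) of the 7 receptors with more than 2 counts in all, in each of the 4 oAb, 4 fAb and 4 scramble libraries; values listed as 0 are not drawn. Cxcr4 is the highest of the receptors in scramble and next to the lowest in oAb and fAb, where Cx3cr1 and Ccrl2 lead.

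On chromosome 9, Ccr1 and Ccr2 lie in a cluster of receptor genes that also holds Ccr9, Cxcr6, Xcr1, Ccr1l1 and Ccr3. Ccr3, the eotaxin receptor, had 37 counts in oAb and 38 in fAb, against 9 in scramble, summed over 4 libraries each, and was not tested. Ccr9, a gut-homing receptor, had 43 in oAb and 52 in fAb, against 1 in scramble. For fAb that is a ratio of 52.4 (95% exact counting interval 9.01 to 2111, which covers counting error only). Ccr9 passed the filter for fAb only through the fAb libraries, where it was high, and for oAb it was not tested.

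Of the 28 other chemoattractant receptors, 10 had 0 counts in all libraries. For oAb 3 of 6 tested rose and 2 fell (median log2 fold change 0.21, against -0.07 over all genes), and for fAb 4 of 7 rose and 2 fell (median 0.70, against -0.04). Among all genes tested the shares were 25.2% higher and 27.0% lower for oAb, and 27.6% higher and 28.8% lower for fAb. The 4 that rose for fAb include Ccr9, which passed the filter only through the fAb libraries. Ptafr, the receptor for platelet-activating factor, rose (log2 fold change 2.29 ± 0.13 in oAb and 2.38 ± 0.12 in fAb). The complement receptors split. C5ar1 (1.18 ± 0.13 in oAb and 1.24 ± 0.15 in fAb) and C3ar1 (0.67 ± 0.11 and 0.70 ± 0.09) rose, while C5ar2, the non-classical C5a receptor, fell (-3.35 ± 0.24 and -3.02 ± 0.19). Cxcr3, the receptor for interferon-induced chemokines, fell by 2.02 ± 0.22 on the log2 scale in oAb and fell by 2.79 ± 0.22 in fAb. It had 41 counts in oAb and 26 in fAb, against 184 in scramble, summed over 4 libraries each. Cxcr3 passed the filter only through scramble, as did C5ar2 for oAb, so the number that fell is not read as support.

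Of 19 ligand genes of the receptors 13 were tested in each comparison with scramble, 12 rose and 0 fell, where 25.2% of all genes tested rose for oAb and 27.6% for fAb. Cxcl11, Cx3cl1, Ccl5, Ccl12 and Adm passed the filter only through the treated libraries and could only come out higher, so the count is not read as support. The median log2 fold change was 5.27 for oAb and 5.33 for fAb, also with genes at 0 in scramble set at their lower bound. The list was drawn up with earlier results of these data known, so its direction is not independent evidence. The Ccr2 ligands Ccl2 (5.99 ± 0.13 in oAb and 6.03 ± 0.13 in fAb) and Ccl7 (8.87 ± 0.23 and 8.90 ± 0.22) rose while their receptor fell. Ccl12, another Ccr2 ligand, had 0 counts in scramble and was at least 1061-fold higher in oAb and at least 1036-fold higher in fAb, with 3 counts over the 4 scramble libraries taken as the floor. The Ccr1 ligands Ccl3 (5.27 ± 0.13 in oAb and 5.33 ± 0.12 in fAb), Ccl5 (11.30 ± 0.22 and 11.06 ± 0.18), Ccl6 (1.29 ± 0.17 and 1.45 ± 0.18) and Ccl9 (3.51 ± 0.12 and 3.57 ± 0.10) rose as well.

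Cx3cl1, which encodes fractalkine, averaged 4.40 ± 0.650 CPM in oAb, against 0.207 ± 0.0869 CPM in scramble (SD, n = 4 each). Its log2 fold change was 4.38 ± 0.28 in oAb and 4.15 ± 0.27 in fAb. Of genes for Fpr2 ligands, Saa3, a serum amyloid A gene, averaged 2600.4 ± 197 CPM in oAb, against 4.69 ± 1.54 CPM in scramble, with a log2 fold change of 9.12 ± 0.26 in oAb and 9.29 ± 0.25 in fAb. Anxa1, which encodes a glucocorticoid-induced ligand, rose by 0.83 ± 0.11 in oAb and 0.79 ± 0.10 in fAb. The Cxcr4 ligand gene Cxcl12 was not tested, with 0.0354 CPM in oAb and 0.0148 CPM in fAb, against 0.0158 CPM in scramble. Mif, another ligand of Cxcr4, did not pass (-0.22 ± 0.41, edgeR adjusted p = 0.684 in oAb, and -0.90 ± 0.40, edgeR adjusted p = 0.0837 in fAb), though it passed as lower in fAb without scramble library 1, under upper quartile scaling and in DESeq2. For the Ackr3 ligands, Cxcl11 had 0 counts in scramble and was at least 179.9-fold higher in oAb and at least 174-fold higher in fAb, and Adm, which encodes adrenomedullin, had a log2 fold change of 4.68 ± 0.45 in oAb and 4.81 ± 0.41 in fAb. Ccl19 and Ccl21a, which encode the Ccr7 ligands, had 0 counts.

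Of the 42 listed genes of G protein signalling and desensitisation, 38 were tested; 15 rose and 12 fell in oAb (median 0.02), and 15 rose and 11 fell in fAb (median -0.02). Over all genes tested, 25.2% rose and 27.0% fell for oAb and 27.6% rose and 28.8% fell for fAb, so genes moving both ways is not particular to the list. Pik3r5, the adaptor of the G protein-coupled PI3 kinase, rose (1.38 ± 0.11 in oAb and 1.33 ± 0.09 in fAb), as did the calcium-dependent kinase gene Ptk2b (0.95 ± 0.08 and 0.95 ± 0.08). Gnb4, a G protein beta subunit gene at 0.236 CPM in scramble, rose (4.17 ± 0.42 and 3.87 ± 0.43) but passed the filter only through the treated libraries, and the gamma subunit gene Gng12 rose too (0.95 ± 0.11 and 0.99 ± 0.10). Rgs10, which shortens G protein signals (-1.88 ± 0.17 and -1.86 ± 0.18), and Grk6, a receptor kinase (-0.89 ± 0.09 and -0.89 ± 0.08), fell. For fAb against oAb none of the ligands, other receptors or signalling genes passed.

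**Figure D4:**
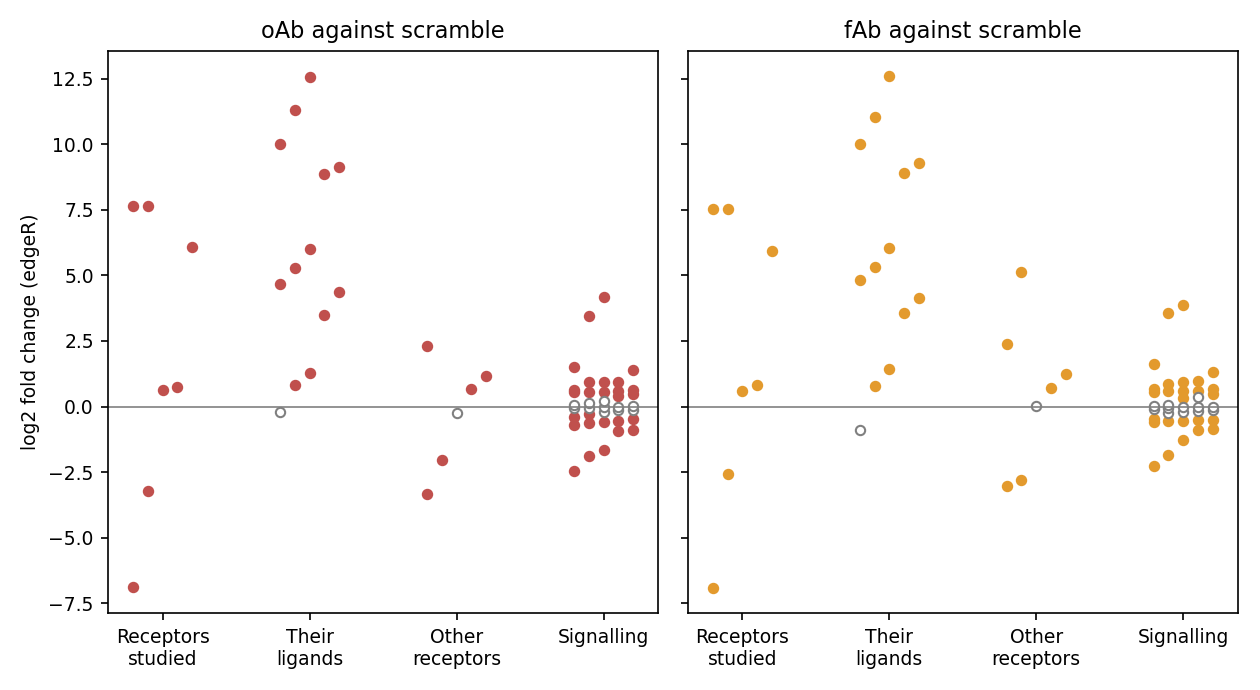
Log2 fold change from edgeR (vertical axis) of each tested gene among the 9 receptors, their ligands, other chemoattractant receptors and signalling genes, for oAb against scramble (left) and fAb against scramble (right); filled points passed the threshold and open ones did not. The ligands lie above 0 apart from Mif, and the signalling genes spread about 0; points of genes with at most 3 counts in scramble depend on the prior count.

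Over all 12 libraries, the genes whose profile was most like that of a receptor were sought among 9775 genes by the mean absolute difference of centred log2 CPM. They were S1pr1 (0.64) and Abca6 (0.65) for Cxcr4, Kdsr (0.22) and Rnf144b (0.22) for Ccr2, Phf11b (0.10) and Slc15a3 (0.13) for Ccrl2, Slamf8 (0.13) and Src (0.17) for Fpr1, and Ccl3 (0.17) and Igtp (0.19) for Fpr2. For Ccr1, which changed less, they were Srp54c (0.08) and Sla (0.08). The nearest profile to Cxcr4 was farther away than that of each other receptor named here. The log2 CPM values were taken with a prior count of 2. The profiles of Fpr1 and Fpr2, with 1 and 2 counts in scramble, depend on that prior count, and so may the genes nearest to them.

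Totals were 13638721 to 18124419 counts per library, and 13449 to 13948 genes had a count. All 10 microglial and macrophage markers were detected, with a summed level of 4631 to 5002 CPM in oAb and 4465 to 4813 CPM in fAb, against 4594 to 5077 CPM in scramble. Single markers differed in both directions under that sum. The mean count of Cd14, an endotoxin co-receptor gene, was 18226 in oAb and 17693 in fAb, against 5366 in scramble, whereas that of Csf1r, the growth factor receptor gene of microglia, was 17259 in oAb and 17938 in fAb, against 23209.5 in scramble, and that of Tyrobp, a signalling adaptor gene, was 4219 in oAb and 4499.5 in fAb, against 6850 in scramble. Markers of other cells moved with treatment: the neuronal list summed to 9.95 to 12.3 CPM in oAb and 9.37 to 12.1 CPM in fAb, against 0.953 to 4.11 CPM in scramble, with Rbfox3, Snap25 and Syt1 at 0, and nearly all of it was Map2 (mean count 178 in oAb and 181 in fAb, against 42 in scramble). The fibroblast list summed to 2.40 to 3.84 CPM in oAb and 1.76 to 2.73 CPM in fAb, against 0 to 0.184 CPM in scramble, with Pdgfra at 0, and most of it in treated libraries was Dcn (mean count 42.5 in oAb and 41.2 in fAb, against 0.25 in scramble). The oligodendrocyte list summed to 72.9 to 79.8 CPM in oAb and 73.7 to 78.5 CPM in fAb, against 127 to 172 CPM in scramble, with Mog and Olig2 at 0. There Mbp was lower (mean count 676 in oAb and 804 in fAb, against 1858 in scramble), while the mean count of Cnp was 538 in oAb and 520.2 in fAb, against 439 in scramble. These mean counts are not scaled for library size, so no direction is read for Cnp. The astrocyte list summed to 0.944 to 1.85 CPM in oAb and 1.35 to 1.93 CPM in fAb, against 0.627 to 0.807 CPM in scramble, with Aqp4 at 0. The lymphocyte list summed to 0 to 0.252 CPM in oAb and 0.0552 to 0.170 CPM in fAb, against 0.307 to 0.564 CPM in scramble, with Cd3d and Cd3e at 0. Of 5 genes in each of these lists, 2 neuronal, 4 fibroblast, 3 oligodendrocyte, 4 astrocyte and 2 lymphocyte genes had a count in any library. The 13 mitochondrially encoded genes took 2.60% to 3.20% of counts in oAb and 2.58% to 2.81% in fAb, against 4.07% to 4.83% in scramble. Of them 0 rose, while 7 fell in oAb, where 27.0% of all genes tested fell, and 10 fell in fAb, where 28.8% fell. The part of the mitochondrially encoded genes in the receptor results was not tested. Scramble library 3 stood apart, where ribosomal protein genes took 10.6% of counts and, in the remaining scramble libraries, 6.37% to 6.73%. Without it all 7 receptors kept their calls, with Cx3cr1 at 0.59 in oAb and 0.57 in fAb and Ccr1 at 0.78 in oAb and 0.85 in fAb. The Fpr1 controls then had 0 counts, and its fitted log2 fold change, which depends on the prior count, was 9.21 in oAb and 9.15 in fAb without that library, where it was 7.64 in oAb and 7.53 in fAb with it. For Fpr2 it was 10.23 in oAb and 9.91 in fAb within the Gm10273 set, whose only control had 0 counts, where it was 7.63 in oAb and 7.54 in fAb over all libraries.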

How the data were processed

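The labels' protocols name a stranded mRNA kit for the 12 IMG libraries, the file headers say that reads were trimmed, and the submitters' processing notes name the build mm10. Aligner, counter and strand setting were not given in the sources used here. Both of the 2 deposited tables hold counts, RPKM, TPM and a signal under the name CPM, whose columns sum to unequal totals and which was not used. The scramble columns of both tables were identical. Fold changes, log2 fold changes and p-values of the authors' deposited tables were not tested again; there the log2 fold change of Cxcr4 was -6.87 for oAb and -6.91 for fAb, and the adjusted p of Ccr1 was 0.0296 for oAb and 0.00854 for fAb.

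Libraries were grouped by title. Counts of each comparison's 8 libraries were fitted in edgeR 4.0.16 under R 4.3.3 (filterByExpr with a minimum count of 10, TMM, robust quasi-likelihood F test, two-sided, Benjamini-Hochberg over all genes tested, threshold 0.05). Errors of log2 fold changes are standard errors. For a group at 0 counts the fold was bounded by setting its sum to 3 counts; for a group with 1 to 3 counts the ratio has an exact 95% interval. Exact permutation tests used SciPy 1.17.1. The tests were also run on simulated counts, with far fewer changed genes than passed here against scramble. That run is not read as support for the results. Other settings tried were scaling by DESeq2 size factors or upper quartiles, the filter dropped or set at a mean of 2 CPM, other tests (DESeq2 1.42.0, and voom in limma 3.58.1), a replicate block, all 12 libraries in a single fit, the library set as a term or each set alone, a stricter threshold (0.01), and each library left out in turn.

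Named genes were all 9 receptors, every tested ligand, the 6 tested genes of each other list with the smallest adjusted p over both comparisons with scramble, the 2 genes with the most similar profile (mean of at least 2 CPM, predicted genes left out) and genes of the receptor clusters. Timm23, Gm10273 and further untested list members were named after their values were seen. A few items covered by these rules are not reported here. The members and lists were chosen with earlier results of these data known. Sequences were matched by symbol to a RefSeq promoter table (GRCm38.p6), which held 8 of the 9 receptors; shared 50-base words and overlaps came from GENCODE M21. No 2 libraries of a group were duplicates (chi-square per degree of freedom 2.97 to 143).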

Additional observations from a re-analysis of the deposited data

Results flagged for a closer look

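In 3 of 23 groups of 4 values, 1 library stood apart from the other 3 by a gap larger than Dixon's critical share of the group's range. Chance flags about 1 in 20 groups if values are normally distributed. A group at 0 in all but 1 library is always flagged, so the number of flags is not set against that rate. All 3 are single counts: Ccr7 in oAb library 1 (0.0657 CPM, the other oAb libraries at 0), Ccr7 in fAb library 4 (0.0608 CPM, the other fAb libraries at 0) and Fpr1 in scramble library 3 (0.0724 CPM, the other scramble libraries at 0).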

How the results depend on the processing

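For oAb against scramble, 139 receptor values kept their direction and side of the threshold and 1 lost its call (Cx3cr1 within the Timm23 set, 0.37). For fAb against scramble, 131 kept them and 1 lost its call (Ccr1 with the library set as a term, 0.60). The causes were not tested. Fpr1 was not tested for fAb with a mean of at least 2 CPM. In every fit that left out a library 5 receptors rose and 2 fell in both comparisons. For fAb against oAb, 89 values kept their direction and none passed; Ccr1 reversed to -0.062 with the library set as a term, -0.052 within the Gm10273 set, -0.0090 without oAb library 2 and -0.015 without fAb library 2, and Cx3cr1 to 0.011 without oAb library 3 and 0.0068 without oAb library 4 (leaving out a library gave -0.13 to 0.011 for Cx3cr1 and -0.015 to 0.11 for Ccr1). The counts of genes passing moved over 1.5 times within the Timm23 set for oAb (3792 genes, 1816 lower, where the Gm10273 set, with 1 scramble library assumed to vary like the oAb libraries, gave 7317), with the library set as a term for fAb (3844 genes, 2020 higher and 1824 lower) and with DESeq2 for fAb against oAb (16 genes, 4 higher and 12 lower). Leaving out a library gave 4962 to 7174 genes for oAb, 5517 to 7598 for fAb and 0 to 0 for fAb against oAb. Upper quartile scaling moved the median log2 fold change of all genes from -0.07 to -0.24 for oAb and from -0.04 to -0.23 for fAb, and the share of higher genes among those passing from 48.2% to 34.6% and from 48.9% to 34.3%; under it Cx3cr1 was at 0.45 in oAb and 0.41 in fAb, and Ccr1 at 0.59 and 0.64. The Timm23 set holds no fAb library, so fAb could not be compared within it. With the set as a term, fAb against scramble therefore rests on scramble library 1 as the only control in the same set. The replicate block gave 5081 genes for oAb, 6292 for fAb and 0 for fAb against oAb and changed no receptor call; the numbers were not shown to pair the libraries (r of same-numbered libraries -0.25 to 0.08 for oAb and scramble, 0.09 to 0.20 for fAb and scramble, -0.23 to 0.24 for fAb and oAb). At this depth, receptors under about 0.2 CPM could not be told from absent.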
